A study of Drosophila melanogaster with 15 samples.

Results

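Lysozymes are enzymes that cut peptidoglycan, the sugar and peptide mesh of the bacterial cell wall. In *Drosophila melanogaster*, the lysozyme genes named *Lys* followed by a letter lie next to each other on chromosome arm 3L, and they are known mainly from the digestive tract, where lysozyme is thought to help the fly use bacteria in its food. The 6 genes described here are *LysB*, *LysC*, *LysD*, *LysE*, *LysP* and *LysS*, the rows whose gene symbol is Lys followed by 1 capital letter. They are 6 of the 10350 named loci analysed. *LysX*, another gene of this family, was not analysed here. The gene group was selected from measured values of these same libraries, since the family had been seen to differ between genotypes and conditions. The levels and the responses of the 6 genes to heat and diet are therefore given as a description, with no test.

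RNA was sequenced from whole male flies that were 1 week old, with about 10 flies pooled in each library and 1 library for each of 5 genotypes under 3 conditions. The control flies were CantonS/w[1118]. The mutants were *Dg* (Dg[O55]/Dg[O86], the transmembrane protein Dystroglycan), *Dys* (homozygous for the deficiency Df(3R)Exel6184, which removes Dystrophin), *Syn1* (Df(3L)BSC450/deltaSyn1[5-2], a Syntrophin) and *Nos* (Df(2L)BSC230/deltaNos15, nitric oxide synthase). These proteins belong to, or act with, the dystrophin glycoprotein complex, which joins the cytoskeleton to the extracellular matrix. Unstressed flies were kept for 5 days at 25°C on standard food, heat-stressed flies for 5 days at 33°C on standard food, and metabolically stressed flies for 4 days at 25°C on yeast paste without sugar. A deficiency removes many genes, and the 5 genotypes came from different stocks, so genotype and genetic background cannot be told apart. The deficiency and the deletion of the *Syn1* flies are on the same chromosome arm as the lysozyme genes, and their extents were not compared with this cluster. In RNA from whole flies, fewer cells of a type and less RNA per cell cannot be told apart either.

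The values are FPKM, fragment counts scaled by transcript length and by the mapped fragments of the library, as the authors deposited them. The sequencing depth relative to the unstressed control library, recovered from the steps between low values, ran from 0.798 to 1.12. Markers of male tissue were present, since the summed FPKM of 4 accessory gland loci, which make seminal fluid proteins, was between 230 and 2619. Yolk protein genes, which are strongly expressed in females, summed to between 3.06 and 10.2. The summed FPKM of 2 flight muscle loci ranged from 10.9 to 176 and that of 2 eye loci from 26.3 to 222. The part of such tissue differences in the lysozyme values was not tested.

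The tables listed all 6 genes at a single position, 3L from 1205467 to 1235457, which spans the whole cluster. A further 2 loci listed at this position carry the name *mwh*, a gene of wing hair polarity, and had a summed FPKM of 1.97 to 8.11. The build behind these positions is not given in the sources used here. In the BDGP6 annotation (Ensembl release 115), the order along the arm was *LysB*, *LysC*, *LysD*, *LysE*, *LysP* and *LysS*, each with 1 exon. *LysB*, *LysC*, *LysE* and *LysS* are on the plus strand, and *LysD* and *LysP* are on the minus strand. The genes *LysB*, *LysD* and *LysE* were 611, 480 and 580 bp long, *LysP* was 615 bp and *LysS* was 492 bp. *LysC* is annotated there as a pseudogene of 242 bp, and its end overlaps *LysD* by 10 bp. The next gaps were 1630 bp between *LysD* and *LysE*, 4675 bp between *LysE* and *LysP*, and 9050 bp between *LysP* and *LysS*. Lysozyme paralogs of this cluster are very similar, so reads can be shared or split between them, and the way such reads were assigned is not given in the sources used here. For this reason each gene is given beside the sum over all 6, which depends less on how reads were divided among them. The sum is not free of it, because FPKM are scaled by length. A read would weigh more on *LysC* if its short length was used, which is not known. A lead in FPKM is therefore not the same as a lead in reads. Sequences of the genes were not used here.

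**Figure D1:**
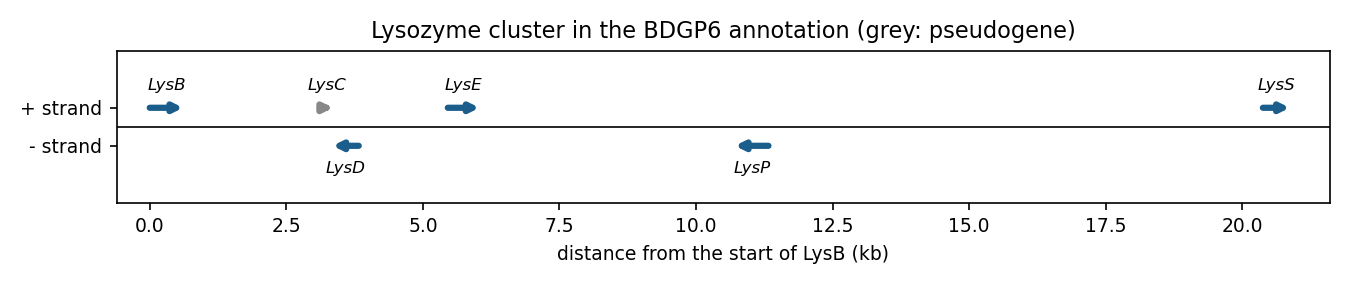
Map of the 6 lysozyme genes in the BDGP6 annotation, drawn to scale as distance in kb from the start of *LysB*. Arrows point in the direction of transcription, the grey arrow is the pseudogene *LysC*, and *LysC* and *LysD* meet end to end with an overlap of 10 bp.

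The genotypes differed first in which lysozyme gene held the largest share of the summed FPKM. *LysE*, a gene of the digestive lysozyme group, led in all 3 control and all 3 *Nos* libraries, and *LysC* led in all 9 *Dg*, *Dys* and *Syn1* libraries. In the control flies *LysE* held 89.3% of the cluster sum when unstressed, 78.1% at 33°C and 77.4% on yeast. In the *Nos* flies its share was 84.1% when unstressed and 75.9% on yeast, and the heat library lay slightly above the unstressed one. In these 6 libraries no other gene held more than 13.2%.

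The share of *LysC* was 45.0%, 49.0% and 56.0% in the unstressed, heat and yeast libraries of *Dg*. In *Dys* it was 53.3%, 59.5% and 53.8%, and in *Syn1* it was 54.7%, 54.3% and 46.8%. *LysD* came after it in 8 of these 9 libraries and *LysB* in the *Dg* yeast library. *LysB*, *LysC* and *LysD* together made up 75.5% to 97.9% of the sum in *Dg*, *Dys* and *Syn1*. In control and *Nos* they made up 2.79% to 16.1%, so the groups of libraries did not overlap. Loci outside the family also separated these groups, as given with *LysE* below. Neither stress moved the lead from one gene to another in any genotype.

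**Figure D2:**
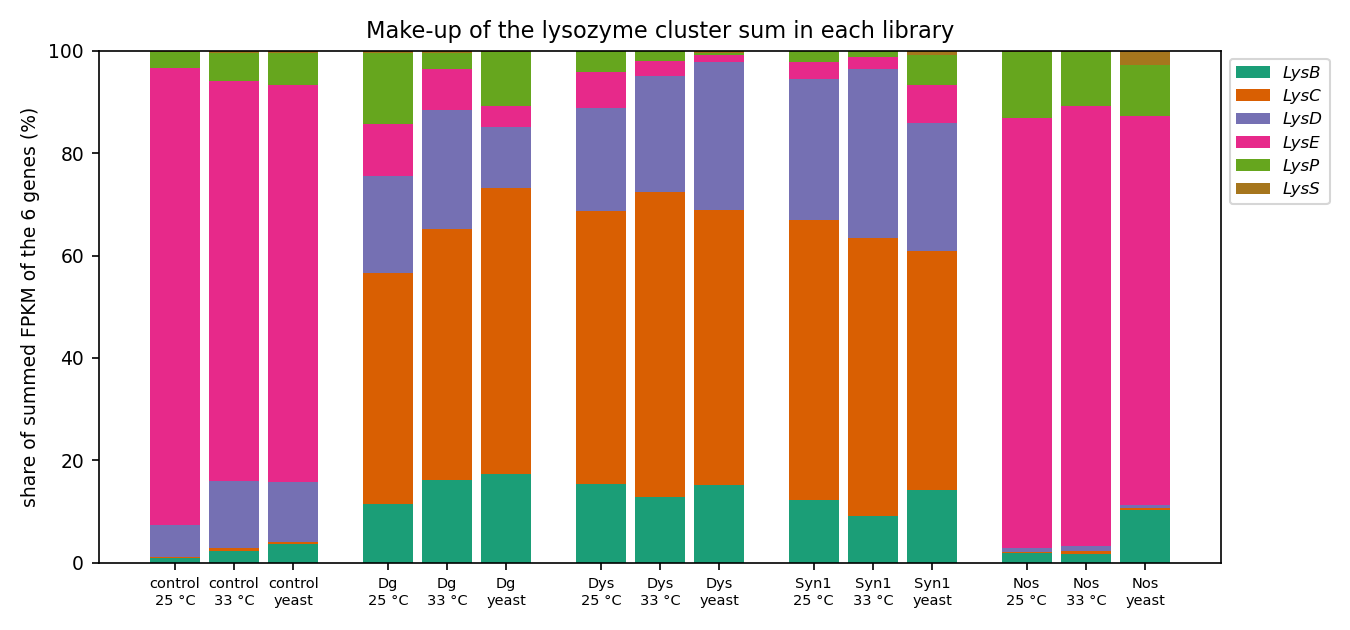
Share of the summed FPKM of the 6 lysozyme genes held by each gene, in percent, with 1 bar for each library and the libraries ordered by genotype and condition. *LysE* fills 75.9% to 89.3% of the bars of control and *Nos*, and *LysC* fills 45.0% to 59.5% of the bars of *Dg*, *Dys* and *Syn1*.

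*LysC* had the widest range of the 6 genes. In control flies its FPKM was 0.110 unstressed, 0.190 at 33°C and 0.339 on yeast, and in *Nos* it was 0.144, 0.243 and 0.208. The same libraries gave 204, 183 and 94.6 in *Syn1*, 80.8, 141 and 395 in *Dys*, and 37.1, 60.3 and 64.0 in *Dg*. The lowest of the 9 *Dg*, *Dys* and *Syn1* libraries was thus far above the highest of the 6 control and *Nos* libraries, and this held at every condition.

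*LysB*, like *LysD* and *LysE* known as a lysozyme of the midgut, showed the same split of the genotypes with smaller distances. Its FPKM was 0.722, 0.698 and 3.08 in the unstressed, heat and yeast libraries of control, and 1.06, 0.718 and 4.64 in those of *Nos*. It was 45.9, 30.7 and 28.6 in *Syn1*, 23.4, 30.4 and 112 in *Dys*, and 9.48, 20.0 and 19.8 in *Dg*. The highest *LysB* value of control and *Nos* was the *Nos* yeast library, which was still below the lowest *Dg* library.

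*LysD* was the gene in which control and *Nos* parted. Its FPKM was 4.50, 4.10 and 10.1 in control, but 0.386, 0.371 and 0.278 in *Nos*, with no overlap between these genotypes. It was 103, 111 and 50.7 in *Syn1*, 30.4, 54.0 and 213 in *Dys*, and 15.7, 28.6 and 13.6 in *Dg*. The lowest *Dg* library and the highest control library, both on yeast, were close, but the ranges did not overlap.

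*LysE* had the opposite order. Its FPKM was 65.4, 24.3 and 66.2 in control and 47.8, 35.5 and 34.5 in *Nos*. It was 12.9, 8.17 and 14.9 in *Syn1*, 10.9, 6.74 and 9.35 in *Dys*, and 8.49, 10.0 and 4.64 in *Dg*. All 9 libraries of *Dg*, *Dys* and *Syn1* were below all 6 of control and *Nos*. The ranges of *Dg*, *Dys* and *Syn1* overlapped each other. The share of all loci that separate these same groups of libraries was not determined. Outside the family, *CG4998* also separated them, with 4.12 to 18.6 FPKM in *Dg*, *Dys* and *Syn1* and 0.129 to 1.52 in control and *Nos*. *CG6485* did so as well, with 48.4 to 87.9 against 25.8 to 33.7 FPKM. *CR34335* had the reverse order, like *LysE*, with 15.8 to 30.8 against 39.9 to 126 FPKM. These loci are among those most like single lysozyme genes, listed below. Whether such a split is particular to the lysozyme genes was not tested. The study, from its read counts, reports *LysE* and *LysS* as strongly upregulated in *Dg*, *Dys* and *Syn1*. For *LysE* the deposited FPKM have the opposite direction. Unstressed *LysS* was 0.165 FPKM in control, higher in *Dg* (0.347) and *Syn1* (0.289), but lower in *Dys* (0.111). These *LysS* values are low and rest on few reads, as given below. The cause of these differences from the study was not tested.

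The ratios between genes show the exchange without the scaling of the libraries. *LysE* was 128 to 597 times as high as *LysC* in control and *Nos*, and 0.0237 to 0.229 times as high in *Dg*, *Dys* and *Syn1*. *LysC* was 3.02 to 5.96 times as high as *LysB* and 1.65 to 4.71 times as high as *LysD* in the 9 libraries of *Dg*, *Dys* and *Syn1*. In control and *Nos* the same ratios were 0.0447 to 0.338 and 0.0243 to 0.748. FPKM are scaled by length, and a different length given to the short *LysC* would shift each ratio by 1 factor in all libraries. How reads were divided among these similar genes is not known, and its effect on the ratios need not be the same in every library.

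The other 2 genes did not show this split. *LysP*, known as a lysozyme of the adult salivary gland, had FPKM of 2.32, 1.69 and 5.34 in control, 7.29, 4.36 and 4.60 in *Nos*, 7.71, 3.58 and 11.8 in *Syn1*, 6.06, 4.62 and 3.01 in *Dys*, and 11.4, 3.88 and 12.1 in *Dg*. *LysP* was lowest in the control flies when unstressed and at 33°C and lowest in *Dys* on yeast, and the ranges of all genotypes overlapped that of at least 1 other. *LysS* was the lowest of the family in most libraries and is described with its read counts below.

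**Figure D3:**
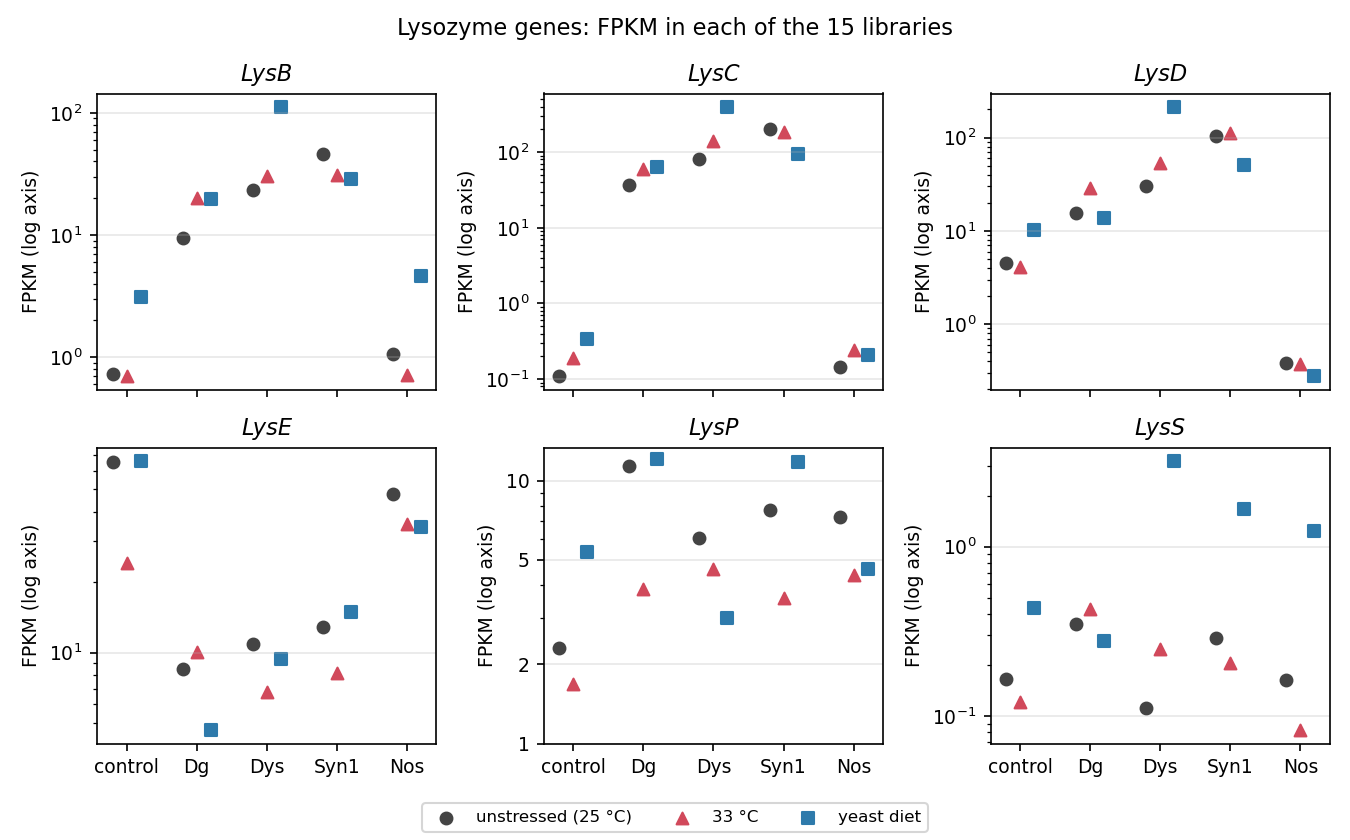
FPKM of each lysozyme gene on a log axis, with 1 panel for each gene, the 5 genotypes along the horizontal axis and 1 symbol for each library (circles unstressed, triangles 33°C, squares yeast diet). *LysB* and *LysC* are high in *Dg*, *Dys* and *Syn1* and low in control and *Nos*, *LysE* has the reverse order, and *LysP* and *LysS* have neither.

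The sum over the 6 genes gave a different picture from the single genes, because *LysE* was high in the genotypes where *LysC* was low. The cluster sum in unstressed flies was 56.8 FPKM in *Nos*, 73.2 in control, 82.5 in *Dg*, 152 in *Dys* and 374 in *Syn1*. At 33°C it was 41.3 in *Nos*, 31.1 in control, 123 in *Dg*, 237 in *Dys* and 336 in *Syn1*. On yeast it was 45.5 in *Nos*, 85.5 in control, 114 in *Dg*, 735 in *Dys* and 202 in *Syn1*. Over the 3 conditions, *Nos* ran from 41.3 to 56.8 and control from 31.1 to 85.5, so these neighbours overlapped. The control range also met that of *Dg*, from 82.5 to 123, whereas *Dys*, from 152 to 735, and *Syn1*, from 202 to 374, overlapped each other but none of the other genotypes.

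The next question was how the cluster responded to 5 days at 33°C. On the log2(FPKM + 1) scale, the difference between the heat library and the unstressed library of the cluster sum was -1.21 in control, -0.45 in *Nos*, -0.15 in *Syn1*, 0.57 in *Dg* and 0.64 in *Dys*. The sum was thus higher at 33°C in 2 genotypes and lower in 3, with a mean of -0.12 ± 0.77 (SD over 5 genotypes). The mean is small beside this spread, and leaving out 1 genotype moved it from -0.31 without *Dys* to 0.15 without control.

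*LysP* was the only gene of the 6 with a lower value at 33°C in every genotype. Its differences on the log2(FPKM + 1) scale lay between -1.35 in *Dg* and -0.30, with a mean of -0.71 ± 0.44 (SD, n = 5 genotypes). *LysE* was lower in 4 of 5 genotypes, with a mean of -0.56 ± 0.57, and *Dg* was the exception at 0.21. *LysC* was higher in 4 of 5, with a mean of 0.31 ± 0.41, but in control and *Nos* its FPKM was only 0.190 and 0.243 at 33°C.

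*LysB* and *LysD* had means of 0.10 ± 0.61 and 0.32 ± 0.46 under heat, both within their own spread. *LysS*, at 0.00 ± 0.12, hardly moved on this scale, which understates changes of genes with low FPKM.

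Of the 30 values of 6 genes in 5 genotypes, 3 were past a 2-fold difference at 33°C on the log2(FPKM + 1) scale. In plain FPKM, *LysP* in *Syn1* (0.465 times) and *LysS* in *Dys* (2.24 times) were past 2-fold as well. *LysE* in control was lower by 1.39 on the log2(FPKM + 1) scale, from 65.4 to 24.3 FPKM, and it is the leading gene of the control sum. *LysP* in *Dg* was lower by 1.35, and *LysB* in *Dg* was higher at 1.00, just past the threshold. The median of the 30 values was -0.08, beside a median of 0 over all loci.

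For comparison, the share of all 10350 loci past a 2-fold difference at 33°C was 4.25% in *Dg*, 4.83% in control, 5.56% in *Nos*, 5.73% in *Dys* and 6.26% in *Syn1*. Since the genes were chosen with the heat contrast in view, nothing is read from their count beside these shares.

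Digestive enzyme genes were followed as other genes of the gut. The summed FPKM of 10 loci of digestive serine proteases (Jonah proteases and trypsins) differed at 33°C by -0.98 in control, -0.73 in *Nos*, -0.38 in *Dg*, 0.27 in *Syn1* and 0.46 in *Dys* on the log2 scale. In control, *Dys* and *Nos* this sum and the lysozyme sum moved the same way, and in *Dg* and *Syn1* they moved in opposite ways. The part of gut RNA content in the lysozyme values was not tested.

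On the yeast diet the differences of the cluster were more uneven. The difference of the cluster sum between the yeast and the unstressed library was -0.88 in *Syn1*, -0.32 in *Nos*, 0.22 in control, 0.47 in *Dg* and 2.27 in *Dys* on the log2(FPKM + 1) scale. The mean was 0.35 ± 1.19 (SD over 5 genotypes), and it changed sign to -0.13 when *Dys* was left out and was 0.66 when *Syn1* was left out. In FPKM, *Dys* went from 152 to 735 while *Syn1* went from 374 to 202, so the order of the pair reversed between the 2 foods.

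*Dys* had the largest differences on yeast, in 4 of the 6 genes. *LysD* was higher by 2.77, *LysC* by 2.27, *LysB* by 2.20 and *LysS* by 1.92 on the log2(FPKM + 1) scale, while *LysE* had -0.20 and *LysP* was lower by 0.81. *LysC* held 53.3% of the sum in the unstressed and 53.8% in the yeast library, *LysB* 15.5% and 15.2%, and *LysD* 20.0% and 28.9%. These values rest on 1 yeast library and 1 unstressed library of *Dys*. The summed digestive protease genes and the summed amylase and maltase genes, described below, also differed most in *Dys*, by 2.77 and 3.26. The amylase and maltase sum of the unstressed *Dys* library, 156 FPKM, was the lowest of all libraries.

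In *Syn1* the genes that led the cluster went the other way. *LysC* was lower by 1.10 and *LysD* by 1.00 on yeast, and *LysB* had -0.67. In the same flies *LysS* was higher by 1.05, and *LysP* and *LysE* had 0.56 and 0.20.

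*LysB*, *LysC* and *LysS* were each higher on yeast in 4 of 5 genotypes. The differences of *LysB* were 1.25 in control, 0.99 in *Dg*, 2.20 in *Dys* and 1.46 in *Nos*, against -0.67 in *Syn1*, with a mean of 1.05 ± 1.06 (SD, n = 5). *LysC* had a mean of 0.46 ± 1.23, but in control and *Nos* its FPKM was 0.339 and 0.208 on yeast.

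*LysD* was higher in 2 of 5 genotypes, *Dys* and control (1.01), with a mean of 0.49 ± 1.46. *LysE* had a mean of -0.24 ± 0.38 and was higher in 2 of 5, and *LysP* had a mean of 0.04 ± 0.74 and was higher in 3 of 5.

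In all, 10 of the 30 values were past a 2-fold difference on the yeast diet on the log2(FPKM + 1) scale, 8 higher and 2 lower. This scale shrinks the folds of low values. In plain FPKM further pairs were past 2-fold, such as *LysS* in *Nos* (7.64 times) and *LysB* in *Dg* (2.08 times). Of the 10 values on the log2(FPKM + 1) scale, control had 2 (*LysB* and *LysD*), *Dg* none, *Dys* 4, *Syn1* 3 and *Nos* 1 (*LysB*). The value of *LysB* in *Dg*, 0.99, fell just short of the threshold. The share of all loci past a 2-fold difference on this diet was 2.27% in *Syn1*, 4.08% in *Nos*, 4.71% in control, 5.11% in *Dg* and 5.29% in *Dys*, and again nothing is read from the count of the chosen genes beside it. The median of the 30 values was 0.23, and the median over all loci was 0.00 at the same 2 decimals.

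**Figure D4:**
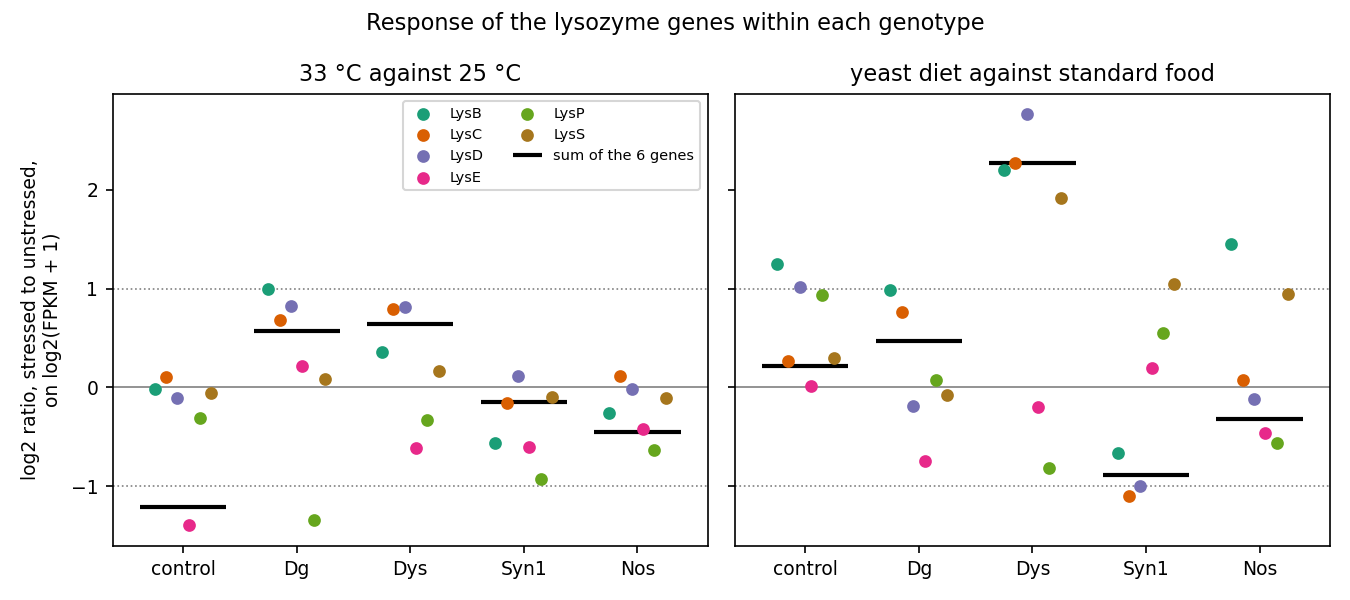
Difference between each stressed library and the unstressed library of the same genotype on the log2(FPKM + 1) scale, at 33°C (left) and on the yeast diet (right), with a point for each gene, a black line for the sum of the 6 genes and dotted lines at 2-fold. On yeast the sum lies at 2.27 in *Dys* and at -0.88 in *Syn1*, and at 33°C it lies between -1.21 in control and 0.64 in *Dys*.

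*LysS*, the last gene of the cluster, had low values that allowed reads to be counted. Its FPKM in the 15 libraries were whole multiples of a single step, after correction for depth, to within 0.0389 of a step. If 1 step is 1 read, which the files do not state, *LysS* had 10, 7 and 22 reads in the unstressed, heat and yeast libraries of control, 11, 5 and 64 in *Nos*, 18, 12 and 84 in *Syn1*, 6, 12 and 176 in *Dys*, and 20, 26 and 16 in *Dg*. The yeast libraries of *Dys*, *Syn1* and *Nos* stood above the other 12 libraries. In FPKM these 3 were 3.20, 1.67 and 1.24, and the rest ran from 0.0823 to 0.431.

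With depth taken into account, *LysS* on yeast was 28.8 times its unstressed level in *Dys* (exact 95% interval 13.0 to 79.6), 5.76 times in *Syn1* (3.43 to 10.2), 7.65 times in *Nos* (4.00 to 16.1), 2.61 times in control (1.18 to 6.16) and 0.797 times in *Dg* (0.386 to 1.62). These intervals cover counting error only, since there is 1 library for each value. The gene was chosen with the diet contrast in view, so the intervals are no test of a diet response. The *Dys* fold rests on 6 unstressed reads. On the log2(FPKM + 1) scale these folds shrank to a mean of 0.83 ± 0.77.

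At 33°C the folds of *LysS* were 0.508 in *Nos* (0.138 to 1.59), 0.710 in *Syn1* (0.312 to 1.56), 0.729 in control (0.235 to 2.12), 1.24 in *Dg* (0.667 to 2.35) and 2.24 in *Dys* (0.777 to 7.27). These values rest on 5 to 26 reads in each library.

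**Figure D5:**
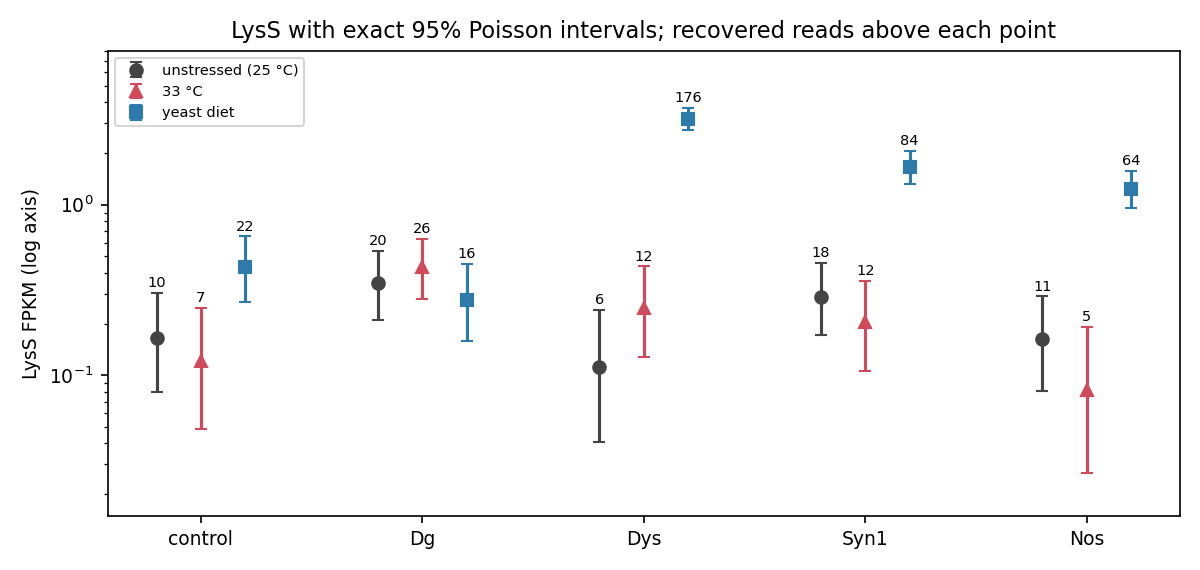
FPKM of *LysS* on a log axis in the 15 libraries, with the recovered read count above each point and exact 95% Poisson intervals that cover counting error only. The yeast libraries of *Dys*, *Syn1* and *Nos*, with 176, 84 and 64 reads, lie above all other libraries, which have 5 to 26 reads.

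Lysozyme genes outside the cluster did not pass the test in either stress. The test was limma's treat on log2(FPKM + 1) against a 2-fold change, with genotype and condition as terms and an unadjusted P under 0.1, so that the 5 genotypes served as repeats of each stress. It passed 0.792% of the 10350 loci at 33°C (36 higher and 46 lower) and 0.783% on yeast (79 higher and 2 lower). Of 11 further lysozyme genes in the list, 3 were measured. *CG16799* had 12.2 to 43.5 FPKM, *CG14823* 1.20 to 12.5 and *CG8492* 0.0888 to 0.429.

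*CG16799*, the most abundant of the 3, had differences at 33°C with a mean of -0.53 ± 0.38 and a negative sign in 5 of 5 genotypes. On yeast its mean was -0.02 ± 0.71. *CG14823* had means of -0.35 ± 0.47 and 0.26 ± 1.06 for heat and yeast, and *CG8492* had 0.12 ± 0.10 and 0.03 ± 0.09. The median differences of the list were -0.35 at 33°C and 0.03 on yeast.

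Peptidoglycan recognition proteins bind or cut the same cell wall polymer. Of 13 such genes in the list, 6 were measured on 5 loci, and 1 locus rose on yeast. This was *PGRP-SC2*, an amidase that breaks down peptidoglycan in the gut, whose FPKM went from 21.3 unstressed to 191 on yeast in control, from 85.2 to 576 in *Dg*, from 43.1 to 259 in *Dys* and from 34.1 to 31.5 in *Nos*. In *Syn1* it was listed at 0 unstressed and at 38.7 on yeast. Without the *Syn1* libraries no locus of this list passed. The list's median was 0.56 on yeast and -0.30 at 33°C, where no locus passed. None of 6 loci with antimicrobial peptide genes passed in either stress, and their median differences were 0.49 at 33°C and 0.95 on yeast.

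Several genes of digestive enzymes rose on yeast. Of 9 loci with amylase and maltase genes, which digest starch and sugars, 7 rose and none fell on yeast, with a list median of 2.20. *Mal-A4* had a mean difference of 2.70 ± 1.69 and the locus of *Mal-B1* and *Mal-B2* had 2.29 ± 0.77, both higher in 5 of 5 genotypes. No locus of this list passed at 33°C, where the median was 0.11.

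Of the 10 protease loci, 2 rose on yeast and 1 fell at 33°C, with list medians of 1.02 and -0.22. *Jon25Bii*, a Jonah serine protease, changed in both stresses, with a mean of 4.52 ± 1.24 on yeast and -2.89 ± 1.71 at 33°C, in the same direction in 5 of 5 genotypes each time. The locus listed for *Jon25Bi*, *jet* and *mRpL24* rose by 2.75 ± 0.55 on yeast.

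The summed diet response of these enzymes differed in direction from that of the lysozymes in some genotypes. Beside the lysozyme sums given above, the protease sum on yeast differed by 0.85 in control, 0.89 in *Nos*, 1.10 in *Syn1*, 1.42 in *Dg* and 2.77 in *Dys* on the log2 scale, and the amylase and maltase sum by 2.66, 0.90, 1.55, 2.69 and 3.26. Both were higher in all 5 genotypes, with the largest difference in *Dys*. The lysozyme sum also had its largest difference in *Dys*, but it was lower on yeast in *Syn1* and *Nos*. This difference between gene groups was not tested.

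Across the 15 libraries, the pattern of each gene was compared with that of every other locus by Pearson's r of log2(FPKM + 1), as a description over libraries that share 5 genotypes and 3 conditions. *LysB*, *LysC* and *LysD* were most alike within the family, with r = 0.96 for *LysB* and *LysC*, 0.92 for *LysC* and *LysD*, and 0.90 for *LysB* and *LysD*. *LysE* ran against them, with r = -0.88 to *LysC* and -0.80 to *LysB*. *LysP* had r = 0.29 and 0.31 to *LysB* and *LysC*, and *LysS* had 0.50 and 0.33.

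Outside the family, where some names stand on more than 1 locus, the loci most like the cluster sum were *CR43186* (r = 0.85), *CG17475* (0.83), *klar* (0.82), *tinc* (0.80) and *Eip75B* (0.79). Those most like *LysB* were *CR43298* (0.91), *CG4998* (0.89) and *CR40469* (0.88), and those most like *LysC* were *CG4998* (0.91), *CG6485* (0.91) and the locus of *CG31007* and *CG31008* (0.90). *LysD* was nearest to *CG34433* (0.89), the locus of *CG31007* and *CG31008* (0.82) and *CG3353* (0.82). *LysE* was nearest to *CR34335* (0.93), *simj* (0.92) and *Cpr62Bb* (0.90). The matched loci of *simj* (0 to 1.77 FPKM) and *Eip75B* (0 to 1.63 FPKM) had low values, and another *simj* locus had 13.0 to 24.6 FPKM. Such likenesses are of single loci and not of whole genes.

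*LysP* was most like *jvl* (0.82), *CG5708* (0.81) and *Tsp26A* (0.81), and *LysS* was most like a locus of *CG1677* (0.93), *Gef64C* (0.84) and *mld* (0.81). The *CG1677* locus was listed at 0 in 8 of the 15 libraries, so its likeness to *LysS* rests on few values above 0. The matched *jvl* locus had 0.0923 to 1.07 FPKM, while another locus of that name had 23.8 to 58.9 FPKM.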

How the data were processed

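The members and the gene lists were chosen with earlier results of these data known. Whole-fly RNA was purified by poly-A selection and sequenced as single-end 100 bp reads. The authors deposited FPKM values with an estimation status for each of 14124 loci in each of 15 libraries. The tool, build and annotation behind these values are not given in the sources used here, and STAR, DESeq2 and BDGP6 are named for the study's read counts, which were not used. The labels of some unstressed libraries name a control genotype where the treatment field gives the control condition, and groups follow the treatment field.

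Loci with a gene name numbered 10776, and the 10350 with status OK in every library were analysed, so 426 dropped out. Differences are log2 ratios of 1 library to 1 library with a pseudocount of 1, so they carry no replicate error, and spreads are over genotypes. Limma (version 3.58.1, R 4.3.3) was run with treat against a 2-fold change on all loci with genotype and condition as terms, as the study's 2-fold and P under 0.1 rule would apply to FPKM in place of counts, and its script was tested on simulated data. It was used for the other gene lists only. Its P-values are scaled by a residual that pools both stresses, in which genotype differences in response and library noise cannot be told apart. They do not measure the spread of 1 stress over genotypes alone. Whole-read steps were found at 82.0% of 1854 low loci (tolerance 0.1 of a step), and the absolute depth is unknown. Intervals for *LysS* are exact 95% intervals of counting error.

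Genes named besides the members were all measured lysozyme genes outside the cluster, up to 2 loci per list and stress with the largest mean difference among those past the test, and the loci with the highest correlations (5 for the sum, 3 for each gene). Alternatives were another pseudocount, size factors, a filter on low FPKM, a 4-fold threshold, adjusted p-values, a sum over 4 genes, and leaving out each genotype.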

Additional observations from a re-analysis of the deposited data

Results flagged for a closer look

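The cluster sum moved in opposite directions in different genotypes under the same stress. At 33°C its difference on the log2(FPKM + 1) scale was highest in *Dys*, at 0.64, and lowest in control, at -1.21. On the yeast diet it was 2.27 in *Dys* and -0.88 in *Syn1*. Each of these values compares 1 library with 1 library, so the difference between the genotypes was not tested.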

How the results depend on the processing

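The direction of the cluster sum in each genotype was kept under a pseudocount of 0.1, median-ratio scaling and a sum over *LysB*, *LysC*, *LysD* and *LysE* alone. The mean over genotypes, leaving out 1 genotype at a time, ran from -0.31 to 0.15 at 33°C and from -0.13 to 0.66 on yeast. With a 4-fold threshold, 0 of the 30 single values passed at 33°C in place of 3, and 3 passed on yeast in place of 10. A pseudocount of 0.1 gave 4 and 15, and median-ratio scaling 3 and 8. The mean *LysE* share in *Nos* was 93.4% over 4 genes, against 82.0% over 6. Over all loci, the limma counts were 82 at 33°C and 81 on yeast. They became 419 and 122 with a pseudocount of 0.1, and 2699 and 303 when tested against no change with Benjamini-Hochberg adjusted p under 0.1. Leaving out 1 genotype gave 74 to 115 at 33°C and 60 to 124 on yeast, the highest without *Syn1*. For the lists of other genes, 7 counts of passing loci differed from the ones reported by over 1.5 times, became 0 or rose from 0, and 83 did not. The peptidoglycan recognition list rose from 0 to 1 at 33°C without *Dys*. The antimicrobial peptide list rose from 0 to 1 on yeast without *Syn1*, and likewise without control. The cause of these changes was not tested. The limma test already pairs stressed and unstressed libraries through its genotype term, and with 1 library for each genotype and condition there are no replicate numbers to block on. Depth limits *LysS*, with 5 to 26 reads in 12 libraries.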
